A study of Mus musculus with 5 samples.

Results

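Rab GTPases and the exchange factors of the Rapgef, Arhgef and Dock families were described here at the level of promoter chromatin and STAT3 binding in mouse dendritic cells. Genes were taken by name from 4 deposited region lists: every symbol made of Rab, a number and optional letters, and every symbol that starts with Rapgef, Arhgef or Dock. The lists held 93 such symbols, which stand for 89 genes of the 13941 protein-coding genes with a listed start. There were 52 Rab, 20 Arhgef, 11 Dock and 6 Rapgef genes, and 31 of the 89 had more than 1 listed start. Because a gene enters a list when a region is assigned to it, family members without any assigned region are not among the 89. Rab3ip, which carries a Rab name, encodes an exchange factor for the Rab8 proteins. The lists place a gene called Rab42 on chromosome 1 between Ctse and Pm20d1, where the RefSeq gene table has Rab7b. It is called Rab42 below, as listed.

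The cells came from marrow of C57BL/6 females aged 10 weeks, grown for 7 days in GM-CSF and IL-4 (10 ng/mL of either cytokine) and enriched for CD11c to 95% purity. One culture condition was SAHA (vorinostat, a histone deacetylase inhibitor, dose labelled 500 nm) for 12 hours and the other was diluent for the same time. Chromatin immunoprecipitation sequencing (ChIP-seq) gave 1 library each for STAT3 in SAHA, H3K4me3 in SAHA, STAT3 in diluent and H3K4me3 in diluent, and 1 IgG control library from diluent cells. The labels do not say how many animals were pooled, and with 1 library per group no difference between SAHA and diluent has a replicate check or a p-value. Filtered tags, the aligned reads that MACS kept, numbered 21428355 for H3K4me3 in SAHA and 22420200 in diluent, 17810183 for STAT3 in SAHA and 25013431 in diluent, and 18925827 for IgG. H3K4me3 regions lay within 5 kb of a start of 10 of 10 dendritic cell markers in both libraries, 4 of 4 macrophage markers in both, 2 of 3 T cell markers in both, 0 of 3 B cell markers in SAHA and 1 of 3 in diluent, and 0 of 2 NK cell markers in either. The 4 further markers Cd3e, Cd3g, Cd79a and Ncr1 have no listed start and were not measurable.

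Rab proteins are small GTPases that mark the membranes of the endosomal and secretory system and, when bound to GTP, recruit the effectors that move, tether and fuse vesicles. Exchange factors load small GTPases with GTP: the Rapgef proteins act on Rap, which controls integrin adhesion, and the Arhgef and Dock proteins act on RhoA, Rac and Cdc42, which drive actin. In dendritic cells these systems carry antigen through endosomes and power migration. H3K4me3 is a histone mark found at active promoters, and STAT3 is a transcription factor activated by cytokine receptors, whose usual DNA element is TTCNNNGAA.

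Promoters of 5 genes are printed here because the STAT3 results turn on them: Rab4b and Rapgef6 had the highest-scoring STAT3 regions near these genes in SAHA, Rab5a had a STAT3 region over its start in diluent, Rab10 had overlapping regions in both libraries, and Rab11a holds the STAT element with no STAT3 region within 5 kb. The sequences are RefSeq promoters of the GRCm38.p6 build, 250 bases before to 50 after a start, read in the direction of transcription. They were matched by name, and their coordinates belong to that build and not to mm9, which the region files use. Capitals mark windows with at least 5 of the 6 fixed letters of TTCNNNGAA, a motif that reads the same on both strands. The promoter of Rab4b is chr7:27178834-27179133 (minus strand), that of Rapgef6 is chr11:54522595-54522894 (plus strand), that of Rab10 is chr12:3309920-3310219 (minus strand), that of Rab5a is chr17:53478984-53479283 (plus strand) and that of Rab11a is chr9:64737707-64738006 (minus strand).
Rab4b: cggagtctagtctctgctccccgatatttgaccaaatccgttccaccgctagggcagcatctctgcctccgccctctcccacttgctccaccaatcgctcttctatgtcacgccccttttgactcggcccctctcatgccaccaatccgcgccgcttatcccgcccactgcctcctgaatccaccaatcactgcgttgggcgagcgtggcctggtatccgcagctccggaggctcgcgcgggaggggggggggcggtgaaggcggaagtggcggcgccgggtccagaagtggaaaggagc
Rapgef6: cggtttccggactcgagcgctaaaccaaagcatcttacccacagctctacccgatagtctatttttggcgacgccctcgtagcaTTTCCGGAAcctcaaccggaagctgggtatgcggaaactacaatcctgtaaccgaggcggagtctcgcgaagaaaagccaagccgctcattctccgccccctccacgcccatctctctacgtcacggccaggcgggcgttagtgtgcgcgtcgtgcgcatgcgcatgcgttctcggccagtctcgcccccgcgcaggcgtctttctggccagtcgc
Rab10: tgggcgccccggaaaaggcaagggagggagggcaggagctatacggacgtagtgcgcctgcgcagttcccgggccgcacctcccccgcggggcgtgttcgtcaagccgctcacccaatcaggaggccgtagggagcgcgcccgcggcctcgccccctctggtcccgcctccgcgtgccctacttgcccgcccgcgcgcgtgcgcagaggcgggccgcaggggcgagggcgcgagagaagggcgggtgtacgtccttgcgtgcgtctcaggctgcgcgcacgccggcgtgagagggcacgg
Rab5a: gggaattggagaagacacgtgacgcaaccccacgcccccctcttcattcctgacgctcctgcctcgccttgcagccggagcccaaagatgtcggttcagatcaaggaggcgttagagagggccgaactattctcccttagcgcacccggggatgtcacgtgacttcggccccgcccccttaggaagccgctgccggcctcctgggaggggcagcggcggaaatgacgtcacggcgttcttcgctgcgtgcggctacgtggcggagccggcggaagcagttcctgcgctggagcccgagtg
Rab11a: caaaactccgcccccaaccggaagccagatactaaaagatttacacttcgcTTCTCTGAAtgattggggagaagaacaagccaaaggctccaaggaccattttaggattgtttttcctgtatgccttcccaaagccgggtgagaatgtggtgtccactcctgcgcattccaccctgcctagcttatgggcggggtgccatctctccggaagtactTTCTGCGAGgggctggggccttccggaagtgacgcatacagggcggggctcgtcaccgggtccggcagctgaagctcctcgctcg
Rab4b, Rab10 and Rab5a held no window with 5 or more of the 6 letters, Rapgef6 held 1 window with 5, TTTCCGGAA, and Rab11a held the full element as TTCTCTGAA. These matches are descriptions of letters in a window and not of binding.

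H3K4me3 lay at nearly every gene of the set in both libraries. The set and all scored genes were drawn from lists that include the H3K4me3 lists, so high shares follow in part from how genes were chosen. A region was listed within 5 kb of a start for 86 of 89 genes (96.6%) in SAHA and 85 (95.5%) in diluent, against 85.5% and 84.5% of all scored genes. Both libraries had one at 84 genes, and 83.4% of all scored genes did. In bulk chromatin, the share of cells that carry a mark and its level per cell cannot be told apart. Rab17, a Rab of epithelial transcytosis, and Rab27b, which docks secretory granules, had none in either library. Arhgef5, an exchange factor for RhoA, had a region of 1218 bp and 58 tags in SAHA and none in diluent. Arhgef10l, another RhoA exchange factor, had regions with 46 and 74 tags in SAHA and none in diluent. Arhgef10 had none in SAHA and a region of 595 bp in diluent whose score, 52.18, lay close to the lowest score of that list, 50. Among all scored genes, 2.1% had a region in the SAHA library alone and 1.06% in the diluent library alone, so 2 and 1 of 89 are close to the background.

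Tags could be compared where 1 region in SAHA overlapped 1 region in diluent and both had a deposited tag count. For each gene the pair with the most tags within 5 kb of a start was used, which 78 of the 89 genes had. Each tag ratio is SAHA over diluent after scaling to filtered tags, and its interval is an exact conditional binomial interval at 95% that covers counting error alone. Tags at the 78 genes ran from 46 to 3393 in SAHA and from 31 to 3059 in diluent. The median log2 ratio was 0.05, against -0.05 over the 10656 genes with a pair. Tags were at least 1.5-fold higher in SAHA at 6 of the 78 (7.69%), against 5.99% of all genes, and at least 1.5-fold lower at 2 (2.56%), against 1.77%. The interval lay above 0 at 29 genes (37.2%, against 20.5% of all genes) and below 0 at 15 (19.2%, against 31.5%). By family the median log2 ratio was -0.01 over 44 Rab genes, 0.08 over 6 Rapgef genes, 0.17 over 17 Arhgef genes and 0.15 over 11 Dock genes.

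**Figure D1:**
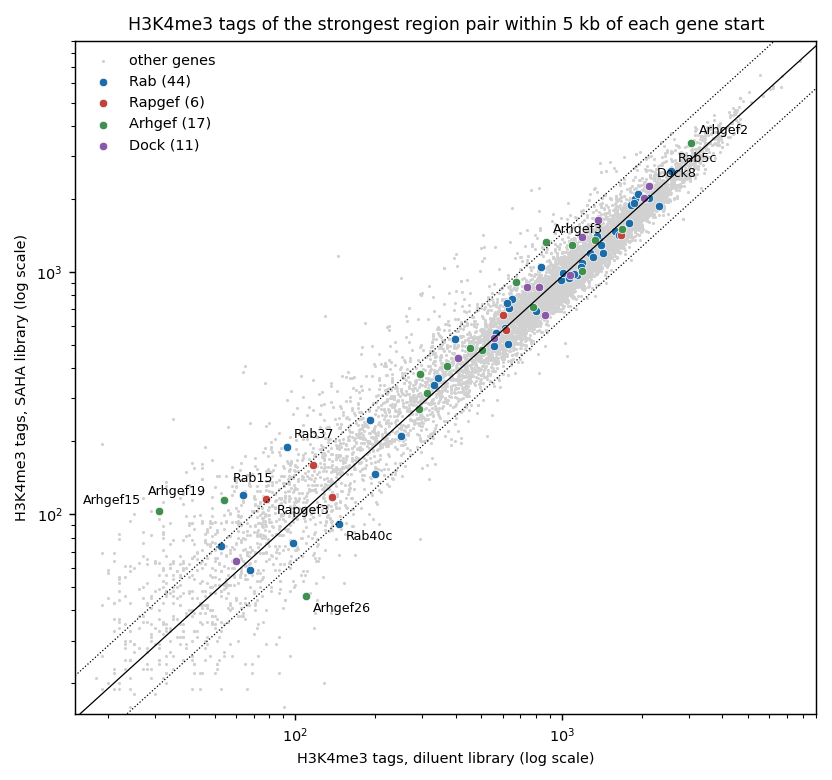
H3K4me3 tags in the SAHA library (y axis) against the diluent library (x axis) for the strongest region pair of each gene, both on log scales. Grey points are other genes, the solid line marks an equal share of filtered tags and the dotted lines a 1.5-fold difference; the genes far from the line, such as Arhgef15 and Arhgef26, have few tags.

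Most of the differences came from pairs with few tags. Of the 15 genes whose pair had under 200 tags in diluent, 5 (33.3%) were at least 1.5-fold higher in SAHA and 2 (13.3%) lower, against 30.3% and 8.65% of all genes at that level. The pairs of Rab40c and Arhgef19, among these, lie 4798 and 2791 bp from the start. Of the other 63 genes, 1 was higher and 0 were lower, against 2.35% and 0.744% of all genes at that level. Just inside the 1.5-fold limit was Rapgef3 with 115 tags in SAHA and 78 in diluent, and just outside it was Rab3b with 74 and 53. Tags per kb of called region gave 3 genes at least 1.5-fold higher (Arhgef15, Rab15 and Arhgef19; 2.87% of all genes) and 3 lower (Rab40c, Rab11a and Dock2; 1.44% of all genes), and the median moved to -0.05 on the log2 scale, against -0.13 over all genes. Tags per kb divide the same tags by the region width, which was more often larger in SAHA, as given below.

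**Figure D2:**
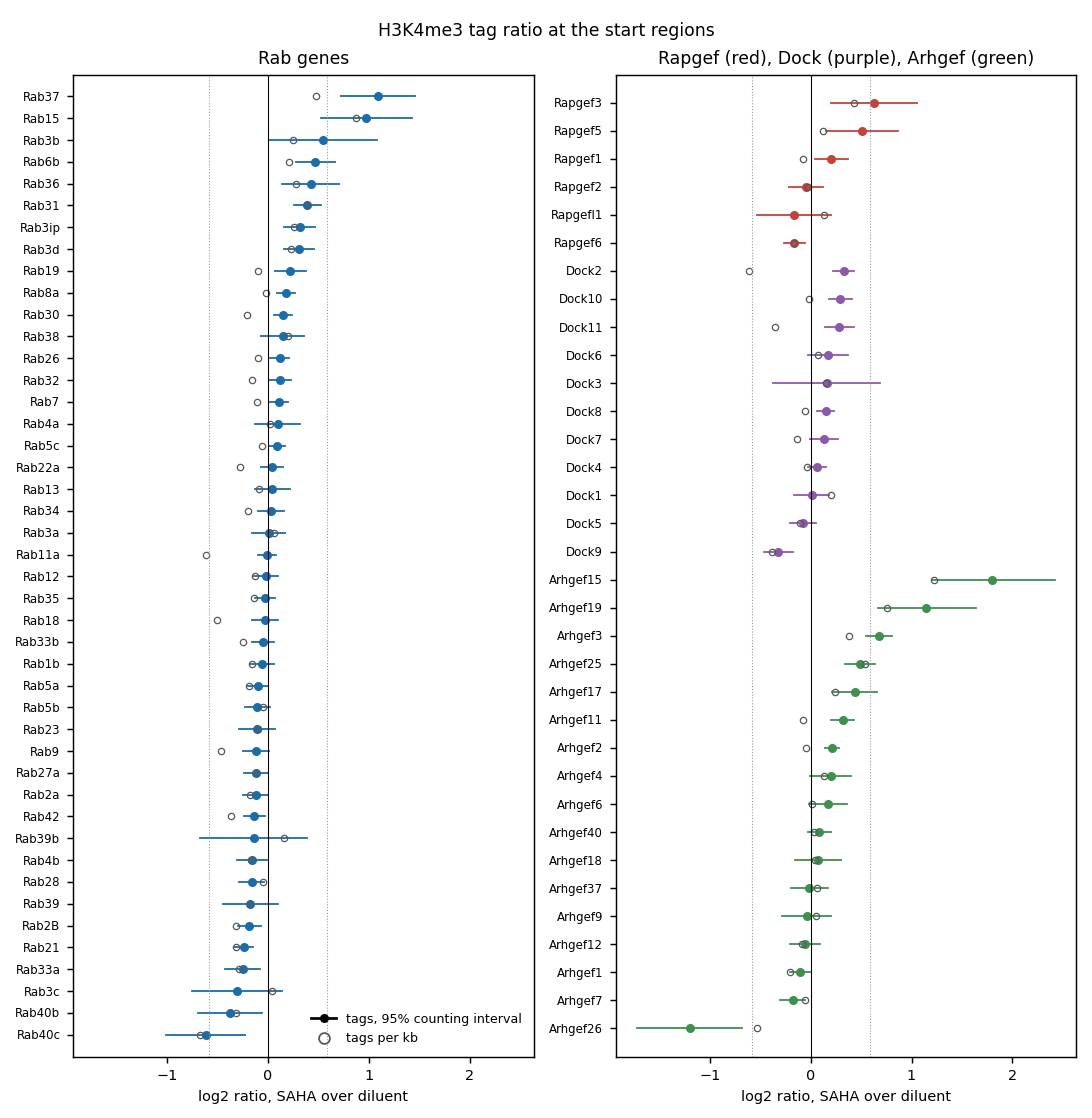
Log2 ratio of H3K4me3 tags, SAHA over diluent, for the 78 genes with a pair: Rab genes on the left, and Rapgef, Dock and Arhgef genes on the right. Filled points and lines are tags with the 95% counting interval, open circles are tags per kb, and dotted lines mark 1.5-fold; most genes lie within the dotted lines and the longest intervals belong to genes with few tags.

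The Rabs of early and recycling endosomes had 11 pairs, with a median of 1358 tags in SAHA and 1376 in diluent and a median log2 ratio of -0.01. The interval lay above 0 at 3 of them and below 0 at 3, and levels differed widely within the group. Rab5c, a regulator of early endosome fusion, had 2609 tags in SAHA and 2564 in diluent, the most of any Rab gene with a pair in diluent. Its relatives Rab5a, with 1598 and 1792 tags, and Rab5b, with 1050 and 1179, were close as well, at -0.10 each on the log2 scale. Rab21, which carries integrins from the surface, had 1879 tags in SAHA and 2316 in diluent, a log2 ratio of -0.24 (interval -0.32 to -0.15). Rab11a, a regulator of recycling endosomes, had 2019 tags in SAHA and 2128 in diluent over regions of 4727 and 3112 bp, so that its tags per kb had a log2 ratio of -0.61. Rab31, a Rab of traffic between the Golgi and endosomes, had 1050 tags in SAHA and 837 in diluent (log2 ratio 0.39, interval 0.26 to 0.53). Rab4b, a fast recycling Rab, had 688 and 803 tags, and Rab35, also of the recycling route, had 1479 and 1577. Rab4a, the relative of Rab4b, had 341 and 333 tags, and Rab17 had no region, as given above. Rab15, a Rab of recycling endosomes, was the 1 gene of the group past the limit, with 120 tags in SAHA and 64 in diluent (log2 ratio 0.97, interval 0.52 to 1.43).

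The Rabs of late endosomes, lysosomes and lysosome-related organelles had 8 pairs, and none of these pairs was past 1.5-fold. The pair of Rab34 lies away from its start, and over its own start, given below, Rab34 was past 1.5-fold. Rab7, which drives late endosome and lysosome fusion, had 1923 tags in SAHA and 1868 in diluent. Rab32, which brings cargo to lysosome-related organelles, had 1403 and 1352 tags, and its relative Rab38 had 364 and 344. Rab39 had 211 tags in SAHA and 249 in diluent (log2 ratio -0.17, interval -0.45 to 0.10). The gene listed as Rab42 had 1422 and 1632 tags over regions of 5459 and 4656 bp. The log2 ratios of the 8 pairs ran from -0.17 to 0.15.

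In the secretory group, Rab37, a Rab of regulated secretion, stood out with 189 tags in SAHA and 93 in diluent (log2 ratio 1.09, interval 0.72 to 1.46) over regions of 1656 and 1086 bp. Rab8a, which directs vesicles to the plasma membrane, had 2099 tags in SAHA and 1935 in diluent (log2 ratio 0.18). Of the Rab3 genes, which serve regulated exocytosis, Rab3d had 772 tags in SAHA and 652 in diluent, while Rab3b with 74 and 53 and Rab3c with 76 and 98 were weakly marked, and their ratios had opposite signs. Rab3ip had 741 tags in SAHA and 623 in diluent (log2 ratio 0.32, interval 0.16 to 0.47). Rab27a, which docks secretory granules and lysosome-related organelles, had 947 tags over its own start in SAHA and 1004 in diluent (log2 ratio -0.02).

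Among the ER and Golgi Rabs and the remaining Rabs, Rab6b, a Golgi Rab, had 526 tags in SAHA and 397 in diluent (log2 ratio 0.47, interval 0.28 to 0.66), short of 1.5-fold. Rab40b, a substrate adaptor of a ubiquitin ligase, had 147 tags in SAHA and 199 in diluent (log2 ratio -0.37, interval -0.69 to -0.06). Its relative Rab40c was counted as lower from a flanking pair 4798 bp from its start, with 91 and 146 tags (log2 ratio -0.62). The tags summed over all regions within 5 kb of Rab40c were 1700 in SAHA and 1866 in diluent, a log2 ratio of -0.07, so the start itself does not show the difference.

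For 11 of the 78 genes the pair did not cover a listed start, and 10 of the 78 pairs held the listed start of another gene. Over its own start, Rab34, a Rab of lysosome positioning, had 541 tags in SAHA and 330 in diluent (log2 ratio 0.78, interval 0.58 to 0.98), whereas the stronger pair next to it spans the start of Rpl23a. Rab33a, a Golgi Rab, had 131 and 91 tags over its own start (log2 ratio 0.59, interval 0.19 to 0.99), and the stronger pair spans the start of Aifm1. With pairs that cover a start, 7 of 71 genes were at least 1.5-fold higher (9.86%, against 5.33% of all genes): Arhgef15, Arhgef3, Rab15, Rab33a, Rab34, Rab37 and Rapgef3. The 1 gene at least 1.5-fold lower (1.41%, against 1.32%) was Arhgef26.

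For Rab1, Rab10, Rab11b, Rab14 and Rab43 the regions did not overlap 1 to 1, and the sum of the tags of all counted regions within 5 kb was read instead. Rab10, a Rab that delivers receptors to the plasma membrane, had 3118 tags in SAHA and 3531 in diluent. Rab14, an endosome and Golgi Rab, had 2416 and 2378 tags, and Rab43, a Golgi Rab, had 2657 and 2626. Rab1, which serves traffic from the ER to the Golgi, had 1650 tags in SAHA and 2270 in diluent, and Rab11b, a recycling Rab, had 646 and 967. At Rab1 and Rab11b the SAHA list splits the domain and one piece has no tag count, so those differences are not read as lower marking. Listed pieces without a tag count also lie near Rab10 in diluent and near Rab14 and Rab43 in both libraries, so their sums are incomplete.

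The Rap exchange factors divided by level. Rapgef6 had 1425 tags in SAHA and 1667 in diluent (log2 ratio -0.16). Rapgef1, which activates Rap below adaptor proteins, had 663 and 602, and Rapgef2 had 739 and 1005 over its start, where the SAHA list splits the region and leaves one piece without a count. Rapgef3, the exchange factor that cyclic AMP activates directly, had 115 tags in SAHA and 78 in diluent (log2 ratio 0.63, interval 0.20 to 1.06). Rapgef5, an exchange factor for Rap, had 159 tags in SAHA and 117 in diluent (log2 ratio 0.51, interval 0.15 to 0.86), and Rapgefl1 had 118 and 138.

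The 11 exchange factors for RhoA with a pair had a median log2 tag ratio of 0.32, and 0.04 in tags per kb. Of the 11, 3 were at least 1.5-fold higher, against 5.99% of all genes, and 2 of the 3 had under 200 tags in diluent, where 30.3% of all genes were. Arhgef3 was the 1 gene of these with a strong start: 1329 tags in SAHA and 869 in diluent (log2 ratio 0.68, interval 0.55 to 0.80) over 3753 and 3052 bp, and tags per kb gave 0.38. Its other starts had 364 tags in SAHA and 294 in diluent, and 49 tags in SAHA with no region in diluent. Arhgef15, known from vascular cells and neurons, had 103 tags in SAHA and 31 in diluent (log2 ratio 1.80, interval 1.21 to 2.43). Arhgef19 had 114 and 54 tags in a pair 2791 bp from its start (log2 ratio 1.14, interval 0.66 to 1.64). Arhgef25, just short of the limit, had its counted pair 4408 bp away at the start of AK077682, with 905 and 675 tags. At its own start Arhgef25 had 242 tags in SAHA and 146 in diluent, which is past 1.5-fold. The diluent region there lies 44 bp from the start, so that pair does not count as covering it. Arhgef2, which is released from microtubules, had the most tags of the 78 genes with a pair, 3393 in SAHA and 3059 in diluent (log2 ratio 0.21). Arhgef1, which links G protein-coupled receptors to RhoA in leukocytes, had 1496 and 1685 tags, Arhgef40 had 1357 and 1336, and Arhgef11, also linked to such receptors, had 1296 and 1089.

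The 5 Arhgef genes whose proteins act on Rac, Cdc42 or RhoG had a median log2 tag ratio of -0.04, and 0.02 in tags per kb. The difference between these 5 and the RhoA exchange factors was not tested. Arhgef26, an exchange factor for RhoG, had 46 tags in SAHA and 110 in diluent (log2 ratio -1.19, interval -1.72 to -0.68), over 920 and 1452 bp. Arhgef7, a partner of PAK kinases, had 1004 and 1187 tags (log2 ratio -0.18), and its relative Arhgef6 had 487 and 453 at the stronger of its starts.

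The 11 Dock genes had log2 ratios from -0.32 to 0.33, with none past 1.5-fold in tags. Dock2, the main Rac activator of migrating leukocytes, had 1632 tags in SAHA and 1362 in diluent (log2 ratio 0.33, interval 0.22 to 0.43). Dock10, an activator of Cdc42, had 1392 and 1188 tags at its stronger start and 706 and 413 at another, where the region is 6805 bp long in SAHA and the diluent list has 3 pieces, 1 of them with a tag count. Dock11, also an activator of Cdc42, had 864 tags in SAHA and 743 in diluent. Dock8, which dendritic cells need for migration, had 2254 and 2128 tags, and Dock4 had 2024 and 2033. Dock9, an activator of Cdc42, had 663 tags in SAHA and 865 in diluent (log2 ratio -0.32, interval -0.47 to -0.17), the lowest ratio of the family. Dock5 with 971 and 1072 tags and Dock1 with 535 and 555, both activators of Rac, had intervals that include 0.

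Regions tended to be wider in SAHA, here as in all genes. Of the 78 pairs, 60 (76.9%) were wider in SAHA, against 72.9% of all genes, and the median log2 ratio of widths was 0.10, against 0.08. The width was at least 1.5-fold larger in SAHA at 4 genes (5.13%, against 2.44%) and at least 1.5-fold smaller at 1 (1.28%, against 0.572%). The 4 were Dock2 with 5912 bp in SAHA and 3096 in diluent, Dock11 with 4567 and 2947, Rab37 with 1656 and 1086, and Rab11a with 4727 and 3112, and the 1 was Arhgef26. The length of all listed regions within 10 kb of a start, a measure chosen after seeing the data that is less tied to how a domain is split, was at least 1.5-fold larger in SAHA at 7 of 84 genes (8.33%, against 5.92%) and smaller at 2 (2.38%, against 0.973%). Dock2, Dock11 and Rab11a were among the 7, with 5985 and 3096 bp, 5584 and 3660 bp, and 4727 and 3112 bp. Rab37 was not, with 4786 bp in SAHA and 4323 bp in diluent (log2 ratio 0.15). The widest regions among pairs in diluent were those of Rab21 with 6230 bp in SAHA and 5908 in diluent, Arhgef2 with 6963 and 5820, Dock8 with 6603 and 5749, a flanking pair of Rapgef2 with 5092 and 5173, and Rab7 with 5699 and 4928. Regions of at least 4 kb stood at 18 of the 78 genes in SAHA (23.1%, against 17.2% of all genes) and at 10 in diluent (12.8%, against 12.6%).

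**Figure D3:**
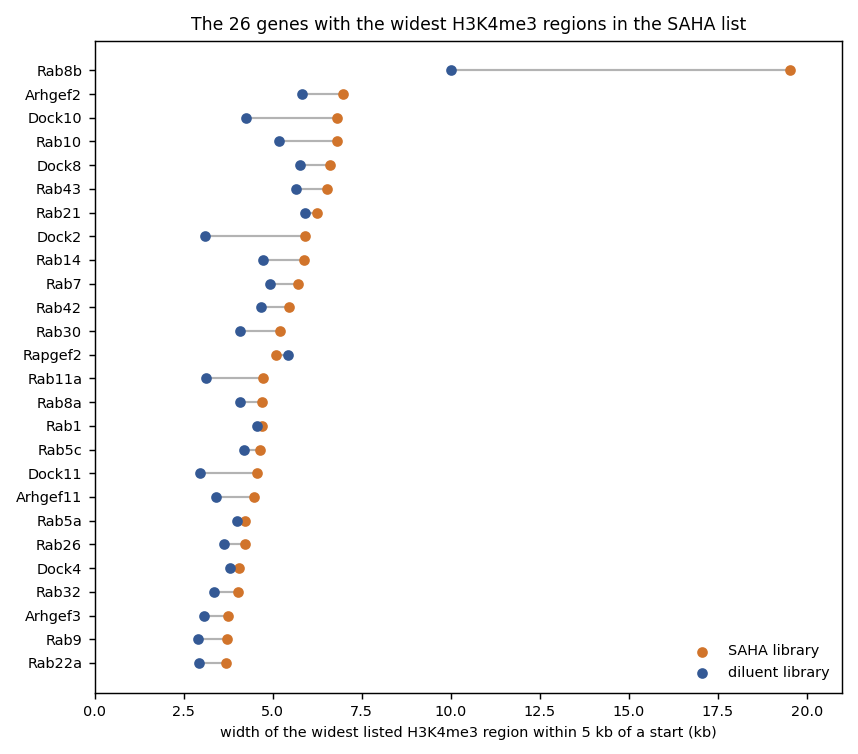
Width in kb of the widest listed H3K4me3 region within 5 kb of a start, for the 26 genes with the widest regions in the SAHA list. The line joins the SAHA point and the diluent point of a gene; Rab8b is far to the right of the rest in both libraries, and Dock2 has a long gap between its points.

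Rab8b, a relative of Rab8a in polarized membrane traffic, had the broadest H3K4me3 domain of the set, and it was singled out after its values were seen. The region over its start on chromosome 9 was 19531 bp wide in SAHA and 10008 bp in diluent, rank 3 of 11924 genes with a region in SAHA and rank 36 of 11779 in diluent. It is not in the single-library tables, so there is no tag count. From 5 kb before the start to 35 kb past it, 6 listed regions in SAHA reached 40828 bp into the gene with a summed length of 41631 bp. In diluent, 5 regions reached 33554 bp into the gene with a summed length of 17239 bp. The listed transcript is 76042 bp long, and no other listed start lay among these regions. Within that window, listed H3K4me3 covered 35803 bp in SAHA and 17239 bp in diluent. The difference, 18564 bp, ranked 1 of 13941 genes measured in the same window, whose median was 214 bp. The window was chosen to hold the regions seen at Rab8b, so the rank is a description. Within 10 kb of the start, listed H3K4me3 covered 11633 bp in SAHA and 10886 bp in diluent (log2 ratio 0.10, rank 5981 of 11916, at the median of all genes), so the difference lay farther into the gene.

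**Figure D4:**
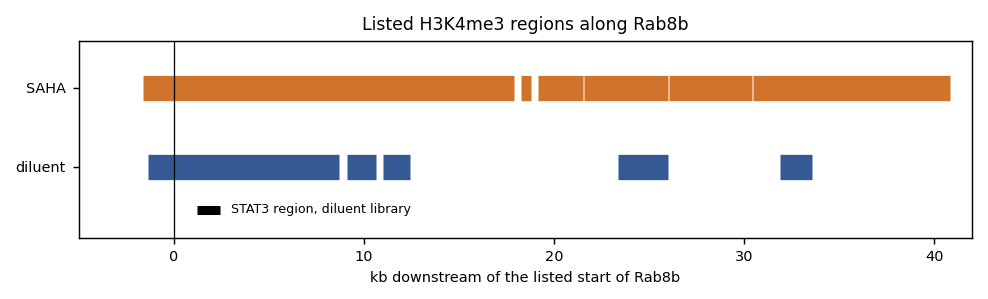
Listed H3K4me3 regions along Rab8b, in kb downstream of its listed start, with SAHA above diluent. The SAHA regions run almost without a gap to 40828 bp past the start, the diluent regions leave long gaps, and the black bar marks the STAT3 region of the diluent library.

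STAT3 regions near these genes were counted in each library. One lay within 5 kb of a start of 16 of 89 genes in SAHA (18%), against 18.4% of all scored genes, and of 10 in diluent (11.2%), against 6.36%. Both libraries had one at 3 genes, Rab10, Rab14 and Rapgef2 (3.37%, against 1.82%). The whole lists held 8552 STAT3 regions in SAHA and 3507 in diluent, and with the 3507 top-scoring regions of each, 9 genes had one in SAHA and 10 in diluent. The share of all scored genes with the shortened SAHA list was not computed, so the 9 cannot be set beside a background. Scores are the authors' MACS scores against IgG and rank regions within 1 list. Among all genes with an H3K4me3 region within 5 kb, 19.6% had a STAT3 region in SAHA and 6.77% in diluent. None of the 26 regions overlapped a region of the IgG library. The lists were called against that same library, so little overlap was possible and its absence adds no support. Of the 16 SAHA regions, 9 lay over an H3K4me3 region of the same condition, 4 covered the start and 8 lay within 1 kb of it. Of the 10 diluent regions, 8 lay over H3K4me3, 2 covered the start and 5 lay within 1 kb.

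In SAHA, the highest-scoring region was that of Rab4b, 1513 bp over the start with a score of 78.84, rank 101 of 8552. Rapgef6 followed with 1109 bp over the start and a score of 64.47, rank 319, and then Dock9 with 638 bp over a start without H3K4me3 and a score of 62.64, rank 356. Neither the Rab4b nor the Rapgef6 promoter printed above holds the full STAT element. These promoters are 300 bases long, shorter than the STAT3 regions. The Rab4b and Rapgef6 regions cover a listed start, so the printed promoters may lie partly under them. The builds differ, and this overlap was not checked. The full sequence under the regions was not read, so whether they hold the element is not known. Rab40b, Rab28, Rab43 and Arhgef1 had SAHA regions within 1 kb of their starts, with scores of 41.49, 39.7, 43.14 and 34.54. Rab30, a Golgi Rab, had one 1011 bp from its start with a score of 31.77. Farther out were the regions of Rab3ip at 3429 bp (33.38), Rab27b at 4084 bp (34.66), Rab31 at 4234 bp (30.07), Dock5 at 4279 bp (30.64) and Dock1 at 4975 bp (36.37), with scores in parentheses. These 5 lay outside H3K4me3 regions, and at Rab27b no H3K4me3 region was listed within 5 kb of the start.

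In diluent, the highest-scoring region was over the start of Rapgef2, 1005 bp with a score of 51.46, rank 308 of 3507. Rab5a followed with 1434 bp over its start and a score of 44.44, rank 580, and Rab5b had 858 bp at 58 bp from its start with a score of 41.84, rank 787. Rab7 had a region at 658 bp (33.23), Rab8b at 1237 bp (31), Rab17 at 2603 bp (30.36), Dock8 at 3820 bp (35.32) and Rapgef1 at 4985 bp (33.3). The region of Rab17 stands where neither library lists H3K4me3 within 5 kb of the start. A STAT3 region alone is enough to bring a gene into the set. A STAT3 region without H3K4me3 at Rab17 or Rab27b may therefore follow from how genes were chosen. The counts by role and family, in small groups, stand against 18.4% of all scored genes in SAHA and 6.36% in diluent. By role, early and recycling endosome Rabs had a STAT3 region at 3 of 14 genes in SAHA and 4 of 14 in diluent, late endosome and lysosome Rabs at 0 and 1 of 8, secretory Rabs at 2 and 2 of 12, and ER and Golgi Rabs at 2 and 0 of 12. Among exchange factors the counts were 2 and 2 of 6 for Rapgef, 1 and 0 of 20 for Arhgef, and 3 and 1 of 11 for Dock.

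**Figure D5:**
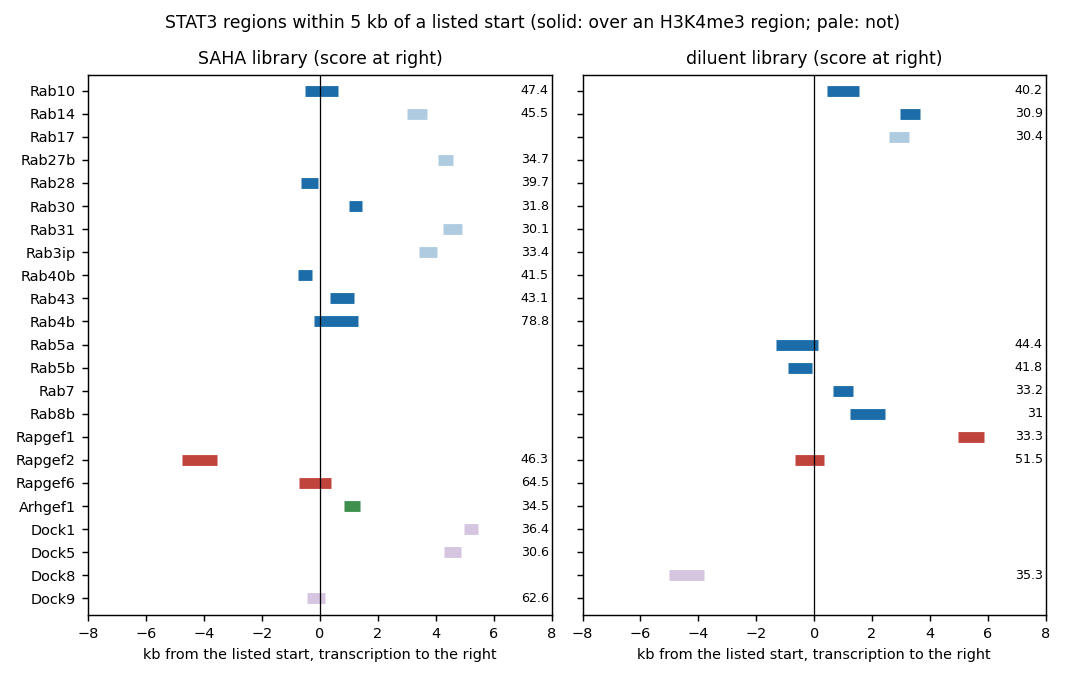
STAT3 regions within 5 kb of a listed start, drawn to scale in kb from the start with transcription to the right; the SAHA library is on the left and the diluent library on the right. Solid bars lie over an H3K4me3 region of the same condition and pale bars do not, the number at the right is the MACS score, and most genes have a bar in 1 of the 2 panels.

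Rab10 was the 1 gene whose regions in both libraries overlapped, by 192 bp: the SAHA region covered the start (score 47.42, 1132 bp) and the diluent region lay 436 bp downstream (score 40.18, 1101 bp). The share of overlapping STAT3 regions over the whole lists was not computed, so the lack of overlap at the other genes is a description only. At Rab14 the regions of the libraries were 10409 bp apart, near different starts, with scores of 45.49 in SAHA and 30.87 in diluent. At Rapgef2 they were 2908 bp apart, the SAHA region 3560 bp upstream of the start (46.26) and the diluent region over it. Counting every STAT3 region that the lists assign to these genes, near or far, gave 51 regions at 34 genes in SAHA and 26 regions at 20 genes in diluent. Of these, 39 in SAHA and 20 in diluent lay inside the transcript. The matching shares over all genes and over the whole lists were not computed, so these counts are a description only. Besides Rab10, regions of the libraries overlapped inside Dock10, with scores of 70.37 in SAHA and 31.78 in diluent, and inside Rab37, with 42.48 in SAHA and 48.01 in diluent. Both of these lay at least 12779 bp from any listed start of the gene they were assigned to.

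Of the 23 genes with a STAT3 region in either library, 17 had an H3K4me3 pair and 0 of these were past 1.5-fold in tags, where 5.99% of all genes were higher and 1.77% lower. The 11 with a pair and a region in SAHA alone had log2 tag ratios from -0.37 to 0.39 with a median of -0.11. The 5 with a region in diluent alone ran from -0.10 to 0.20 with a median of 0.11. The 61 without a region ran from -1.19 to 1.80 with a median of 0.09 and held all 8 genes past the limit. These 61 also include the weakly marked starts, with a median of 718 tags in SAHA and 652 in diluent, against 971 and 865 at the genes with a SAHA region.

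Promoter sequences were found for 71 of the 89 genes, 101 promoters in all. The full TTCNNNGAA stood in 6 of them (5.94%), against 8.30% of all 32851 mouse promoters of the same length, in Arhgef7, Dock4, Rab11a, Rab15, Rab19 and Rab34. None of the 20 genes with both a STAT3 region and a promoter entry was among these. All 6 were among the 51 genes with a promoter entry and no STAT3 region. The share over all genes with a STAT3 region was not computed, so these small counts are a description only. The full sequence under the STAT3 regions themselves was not read. At least 5 of the 6 letters stood in 57.4% of the promoters, against 71.4% of all. The promoters were richer in G and C than most, with a median of 62.7%, against 52.7%, and a median of 20 CG pairs per 300 bases, against 7. Of the 44 genes with a tag pair and a single promoter entry, the 10 with under 200 diluent tags had a median of 15.5 CG pairs (range 7 to 37) and the other 34 a median of 26.5 (range 5 to 53).

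Genes that act on or with the Rabs were counted from 3 further lists, to be read against 5.99% of all genes at least 1.5-fold higher in tags and 1.77% lower. Of 31 prenylation, GDI and Rab GAP genes with a pair, 0 were at least 1.5-fold higher and 0 lower. Of 25 other Rab exchange factors, 1 was higher and 1 lower: Dennd4a had 373 tags in SAHA and 105 in diluent, and Dennd5b had 152 and 239. Of 19 Rab effectors, 1 was higher, Rilpl1 with 577 tags in SAHA and 226 in diluent. STAT3 regions stood within 5 kb of 8 of 37, 6 of 25 and 7 of 25 genes of these lists in SAHA, in the same order, and of 3, 1 and 3 in diluent, against 18.4% and 6.36% of all scored genes.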

How the data were processed

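Members and gene lists were chosen with earlier results of these data known. The submitters' processing notes name BWA and the mm9 build. Per the file headers, MACS 1.4.0rc2 called the regions of each library alone (p-value limit 1e-05), and these deposited tables give tag counts and a fold enrichment per region, which is a ratio to the local background. The authors' deposited lists against IgG give a MACS score and 1 gene per region; their calling settings are not given in the sources used here.

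Symbols were matched to RefSeq names (GRCm38.p6, names only; 14142 of 17024 matched), and 4 older spellings were merged. A start is the transcript end on the side of transcription. H3K4me3 tag counts of 1-to-1 overlapping regions with a count in both single-library tables, 17704 pairs, were scaled to filtered tags. Depth is given with the report, and intervals cover counting error only. Genes named were those with a STAT3 region, the 3 highest and lowest ratios, the 3 with most tags and the 3 widest regions in diluent per family, those marked in 1 library or none, and a fixed set of known Rab and exchange factor genes. In a simulation on the 17704 pairs, a 2-fold rise was given to 200, and intervals detected it in 199. Among pairs left unchanged there, 1.91% passed the 1.5-fold limit. With 1 library per group, variation between libraries could not be simulated, so this recovery does not bear on it. STAT3 was compared by overlap of at least 1 bp. Some further gene lists are not reported here. Alternatives changed the window, score, scaling and pairing. Python 3.11.15, pandas 2.3.3, numpy 2.4.6 and scipy 1.17.1 were used.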

Additional observations from a re-analysis of the deposited data

Results flagged for a closer look

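A STAT3 region near Rab40b also appears in the table of the SAHA STAT3 library called without a control, which no comparison above used. It holds 16 tags with a fold enrichment of 6.82 and a score of 50.1, lies 269 bp from the start, and overlaps no region of the IgG library. It was the 1 region within 5 kb of these genes in the single-library STAT3 tables, and the diluent STAT3 table lists none there.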

How the results depend on the processing

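The count of genes at least 1.5-fold higher in H3K4me3 tags was 6, and it became 3 with a limit of 2-fold, 3 per kb of region, 6 with summed regions, 7 with the median of all genes set to 0, 8 with the strongest pair within 1 kb and 7 with pairs covering the start. The count lower was 2, and it became 1 with a limit of 2-fold and 3 per kb of region. It was 1 with summed regions, 1 with the median of all genes set to 0 and 1 with the strongest pair within 1 kb. With pairs covering the start, a setting chosen after seeing the data, it was 1. The median of all genes was -0.05, so that setting shifts each ratio by that much. The median log2 ratio of the set lay between -0.05 (per kb) and 0.10 (median of all genes set to 0). The count with a STAT3 region in SAHA, 16, became 8 within 1 kb, 8 with scores of at least 40 and 9 with equal numbers of top regions. The count in diluent, 10, became 5 within 1 kb and 4 with scores of at least 40. Shares over all genes were not computed at these STAT3 settings. For the tag counts such shares are given above for the main, per kb and covering-pair settings only. The other counts cannot be set beside all genes. The overlapping STAT3 region of Rab10 was 1 gene, and with an overlap of at least 0.5 of each region required, 0 genes remained. The cause of these shifts was not tested beyond the smaller windows and lists themselves. Counts with H3K4me3 regions stayed between 83 and 86 of 89, and no ratio past the limit changed its sign. With few tags, ratios of weak starts are imprecise. No paired analysis was possible because each group had 1 library.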
